A study of Mus musculus with 4 samples.

Results

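Splenic regulatory T cells (Treg cells) from mice with a floxed or an intact Kmt2d gene were read here for 10 genes of the type 1 helper (Th1) programme. The genes are the T-box factors Tbx21 and Eomes, the cytokine gene Ifng, the receptor chains Il12rb1, Il12rb2, Il18r1, Il18rap and Ifngr1, and the regulators Stat4 and Runx3. They were chosen by name, with earlier results of these data known. All 10 were found among the 20837 genes of the deposited count table. All 10 also passed the filter on low counts that left 13861 genes. RNA sequencing covered 4 libraries from mouse spleen, 2 of genotype Foxp3YFP-CreKmt2d+/+ (called WT) and 2 of genotype Foxp3YFP-CreKmt2dfl/fl (called cKO). Both groups carry the Foxp3-driven Cre with its fluorescent tag, so the Cre itself does not distinguish them. By design the floxed allele is to be cut in cells that express Foxp3 or descend from such cells. Where it was cut was not measured here. The labels used here state neither age nor sex for these mice, nor whether a library is 1 mouse or a pool. P-values therefore measure the spread between the libraries, which may be technical. The extraction text attached to the samples speaks of cultured macrophages of a different knockout, at odds with their tissue, cell type and genotype fields.

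Th1 cells arise when interleukin 12 (IL-12), sensed by a receptor of the IL-12Rβ1 and IL-12Rβ2 chains, activates the transcription factor STAT4. The T-box factor T-bet, encoded by Tbx21, then drives interferon gamma (Ifng) together with Runx3, and IL-18 adds to this through the ligand-binding chain IL-18R1 and the signalling chain IL-18RAP. Interferon gamma in turn signals through a receptor whose ligand-binding chain is encoded by Ifngr1. In Treg cells T-bet is known for marking cells that restrain Th1 responses.

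The upstream sequences of 3 receptor genes whose levels differed between the groups are shown because the receptor chains carry most of the pattern described below. They come from the RefSeq promoter table (build GRCm38.p6, the same assembly as mm10), which held 9 of the 10 genes in 13 start sites. Each run reads 5′ to 3′ in the direction of the gene and stops before the outermost annotated transcript start. Capitals mark a match to the STAT motif.

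Il12rb2, chr6:67376294-67376438, minus strand: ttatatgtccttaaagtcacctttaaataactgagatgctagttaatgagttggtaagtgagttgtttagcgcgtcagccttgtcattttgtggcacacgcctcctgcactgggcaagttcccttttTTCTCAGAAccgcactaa
Il18rap, chr1:40515112-40515361, plus strand: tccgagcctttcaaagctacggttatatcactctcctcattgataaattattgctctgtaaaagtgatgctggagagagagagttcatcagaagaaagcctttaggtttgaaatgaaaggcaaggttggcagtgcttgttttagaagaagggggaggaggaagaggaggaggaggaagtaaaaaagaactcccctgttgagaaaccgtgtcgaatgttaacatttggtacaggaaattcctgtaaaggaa
Ifngr1, chr10:19591699-19591948, plus strand: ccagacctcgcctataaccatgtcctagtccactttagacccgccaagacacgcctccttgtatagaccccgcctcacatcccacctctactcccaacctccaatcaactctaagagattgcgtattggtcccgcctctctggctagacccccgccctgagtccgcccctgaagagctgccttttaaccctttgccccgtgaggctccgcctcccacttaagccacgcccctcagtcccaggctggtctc

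In all 4 motifs were searched on both strands in the 250 bases before each start site, and no match overlapped a match to another motif. The STAT motif TTCNNNGAA occurred in Il12rb2 (TTCTCAGAA, 123 to 115 bases before its table start), in Ifng (TTCAGAGAA, 249 to 241 bases before) and at 1 of the 3 Il18r1 start sites. It lies in 7.01% of the 32817 windows of all genes. The RUNX motif TGTGGT, found in 14.0% of all windows, had 2 matches at 1 of the 2 Runx3 start sites. The T-box motif GGTGTGA (3.33% of all windows) and the AP-1 motif TGANTCA (6.75%) were not among the letters of these 13 windows. A match describes letters only, and the data hold no measurement of binding.

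Library totals ran from 28442416 to 35560491 counts, so 1 read was worth 0.0281 to 0.0352 CPM, the unit that divides each count by its library total. All CPM values below are scaled by TMM factors, which correct for differences in composition between libraries, and errors are SD over n = 2 libraries. Kmt2d itself, the targeted gene, had 721 and 704 CPM in WT and 835 and 793 CPM in cKO (log2 fold change 0.19, SE 0.05, edgeR adjusted p = 0.0375). That call is lost in 6 of 13 alternatives, among them RLE scaling (0.0556) and leaving out any 1 library (0.0951 to 0.237). This count covers the whole gene, floxed exons and all others, and checks nothing about the deletion. The 12 pan T cell markers summed to 5945 to 6223 CPM in WT and 4928 to 5328 CPM in cKO, and the 10 Treg markers to 3366 to 4204 and 2797 to 3440 CPM. Of the Treg markers 6 were lower, Foxp3 among them, 1 was higher (Il2ra) and 3 did not pass, with a median log2 fold change of -0.43 and values from -1.39 (Nrp1) to 0.38 (Il2ra). The 8 macrophage markers summed to 350 to 543 CPM in WT and 283 to 413 CPM in cKO, and none of the 8 is at 0. In bulk RNA fewer cells of a type and less RNA per cell cannot be told apart, and this holds for every level given here.

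Receptor genes moved apart while T-bet and interferon gamma transcripts did not pass the test. Of the 10 genes 3 rose in cKO (Il12rb2, Il18rap and Eomes), 3 fell (Il12rb1, Ifngr1 and Stat4), and 4 did not pass (Tbx21, Ifng, Il18r1 and Runx3). The calls are at an adjusted p under 0.05 in edgeR's quasi-likelihood test, adjusted over all 13861 genes. Over all of these, 31.6% were called, 16.5% higher and 15.1% lower in cKO. The median log2 fold change of the 10 was 0.03, beside 0.0003 for all genes tested. In 7 of the 10 the libraries of one group all lay on one side of the other group, as in 66% of all genes tested.

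**Figure D1:**
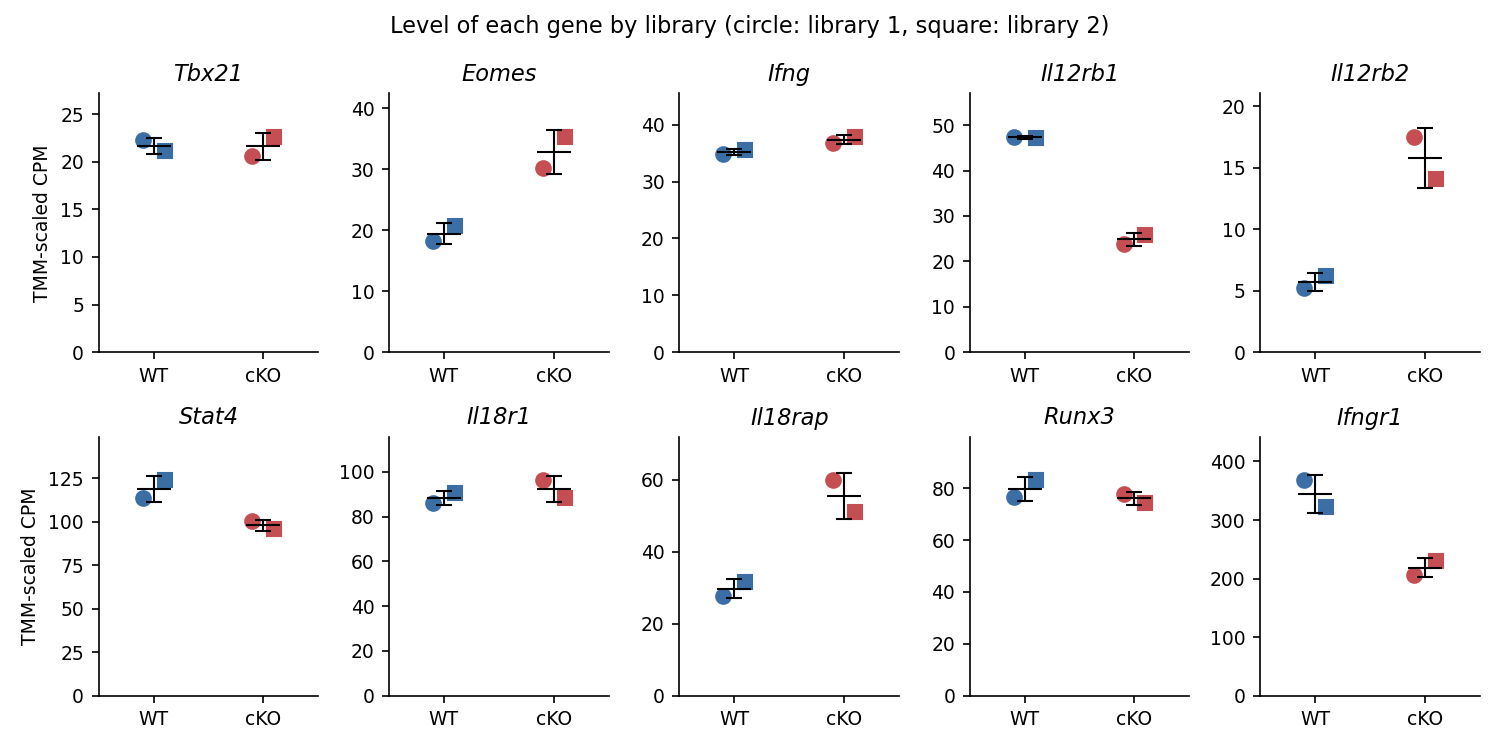
TMM-scaled CPM (vertical axis, from 0) of each of the 10 genes in the 2 WT (blue) and 2 cKO (red) libraries, with mean and SD in black. Il12rb2, Il18rap and Eomes lie higher in both cKO libraries, Il12rb1, Ifngr1 and Stat4 lower, and Tbx21, Il18r1 and Runx3 overlap.

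The 2 chains of the IL-12 receptor went in opposite directions. Il12rb2 (gene number 16162, mm10 chromosome 6, 67285986 to 67376293), the chain that recruits STAT4 and is known as a mark of Th1 commitment, had 5.21 and 6.23 CPM in WT and 17.5 and 14.1 CPM in cKO. Both cKO libraries were above 2 times either WT library, and the log2 fold change was 1.47 (SE 0.15, edgeR quasi-likelihood adjusted p = 0.00435). This rests on 181 and 190 reads in WT and 510 and 486 in cKO. Il12rb1 (16161, chromosome 8, 70808360 to 70823542), the chain shared with the IL-23 receptor, had 47.5 and 47.1 CPM in WT and 23.9 and 25.9 CPM in cKO. The WT pair nearly coincided, both cKO libraries lay far below, and the log2 fold change was -0.93 (SE 0.06, edgeR adjusted p = 0.00244). Both calls held in each of the 13 alternatives, where Il12rb2 ranged from 1.30 to 1.61 and Il12rb1 from -0.99 to -0.88 on the log2 scale.

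Per kilobase of annotated exon, Il12rb2 stood at 0.119 and 0.143 of Il12rb1 within the WT libraries and at 0.794 and 0.589 within the cKO libraries. The ratio rose 5.28-fold in its mean and the groups did not overlap, although with 2 libraries against 2 the smallest 2-sided p an exact permutation test allows is 0.333. With lengths taken over all annotated exon bases, the Il12rb1 transcript was the more abundant in every library. The 3′ part of Il12rb2 overlaps Serbp1 on the opposite strand, with 1519 of its 3794 exon bases shared. Serbp1, an RNA-binding protein gene, had 501 and 515 CPM in WT and 570 and 571 CPM in cKO. Its difference was small (log2 fold change 0.17, SE 0.05, edgeR adjusted p = 0.0416), and the call is lost without any of the 4 libraries in turn (adjusted p 0.100 to 0.201), with RLE scaling (0.0594) and with DESeq2 (0.0696). The strand setting of the counting is unknown here, and reads of this shared stretch cannot be told apart. If they were not counted for Il12rb2, its level per kilobase is understated. If reads of Serbp1 were counted for Il12rb2, its level and its ratio to Il12rb1 are overstated. The order of Il12rb1 and Il12rb2 in cKO is therefore not settled. The neighbouring Il23r, whose product pairs with IL-12Rβ1 to bind IL-23, lay at 0.518 and 0.361 CPM in WT and 0.275 and 0.318 CPM in cKO, without passing the test (log2 fold change -0.56, SE 0.39).

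**Figure D2:**
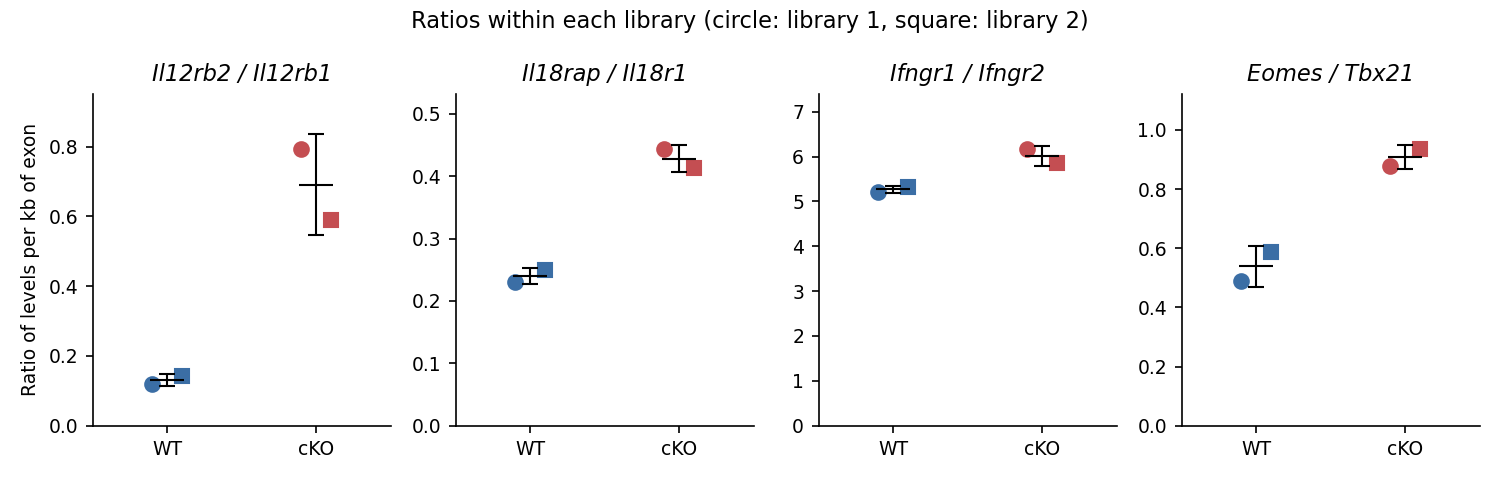
Ratio of 2 transcripts per kilobase of exon (vertical axis, from 0) within each of the 2 WT (blue) and 2 cKO (red) libraries, with mean and SD in black. The Il12rb2 to Il12rb1 ratio goes from a mean of 0.131 to 0.691, and the other 3 ratios are also higher in both cKO libraries.

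Of the IL-18 receptor, only the signalling chain passed the test. Il18rap (16174, chromosome 1, 40515362 to 40551707) had 27.8 and 31.6 CPM in WT and 59.9 and 50.9 CPM in cKO. The groups lay far apart relative to the spread within each, with a log2 fold change of 0.90 (SE 0.10, edgeR adjusted p = 0.00489). Il18r1 (16182, chromosome 1, 40465552 to 40500854), the chain that binds the cytokine, had 86.2 and 90.7 CPM in WT and 96.3 and 88.1 CPM in cKO. These groups overlap, and the log2 fold change of 0.06 has a 95% interval of -0.10 to 0.22 (edgeR adjusted p = 0.557). Per kilobase the signalling chain went from 0.230 and 0.249 of the binding chain in WT to 0.444 and 0.413 in cKO. In each library the binding chain thus remained in excess.

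Both chains sit in the interleukin 1 receptor family cluster on chromosome 1, next to the gene of the IL-33 receptor ST2, Il1rl1, whose annotated end lies 134 bases from the start of Il18r1. Il1rl1 had 37.1 and 34.5 CPM in WT and 6.84 and 8.31 CPM in cKO. The difference was -2.23 in log2 fold change (SE 0.11, with an edgeR adjusted p of 0.00205). These 3 adjacent genes thus showed a fall (Il1rl1), a value that did not pass (Il18r1) and a rise (Il18rap). Per kilobase, Il18rap was at 0.766 and 0.937 of Il1rl1 in WT and at 8.94 and 6.26 in cKO, so the more abundant of these transcripts was Il1rl1 in WT and Il18rap in cKO. Upstream in the cluster, Il1rl2 (log2 fold change -0.32, SE 0.19) and Il1r1 (-0.42, SE 0.20) did not pass.

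**Figure D3:**
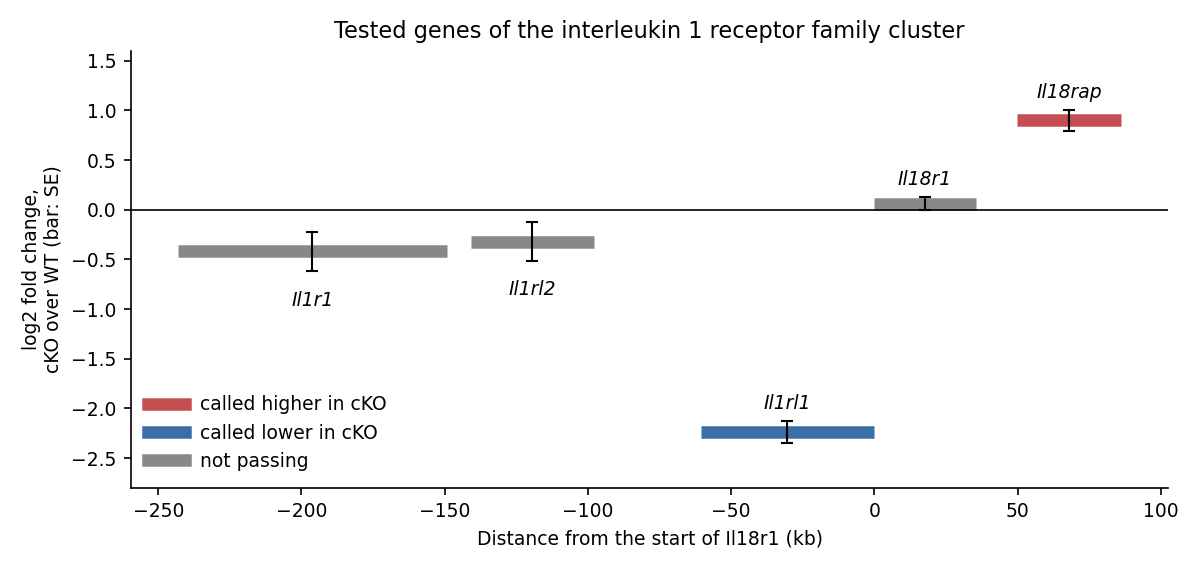
Log2 fold change of cKO over WT (vertical axis, error bar SE) of the tested genes of the interleukin 1 receptor family cluster, drawn over their annotated extent in kb from the start of Il18r1. Il1rl1 at -2.23 and Il18rap at 0.90 flank Il18r1 at 0.06.

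Stat4, which carries the IL-12 signal to the nucleus, was slightly lower. Stat4 (20849, chromosome 1, 51987106 to 52107189) had 114 and 124 CPM in WT and 100.3 and 95.9 CPM in cKO, which gives a log2 fold change of -0.28 (SE 0.06, edgeR adjusted p = 0.0217). The groups do not overlap but lie close. With 1 library left out the call ended for WT 2, cKO 1 or cKO 2, at log2 fold changes of -0.22, -0.31 and -0.25. The lowest edgeR adjusted p over all alternatives, 3.06e-04, came from one chosen after seeing the data. Of 12 pan T cell markers 8 were lower in these libraries too (median -0.32). Of 10 Treg markers 6 were lower and 1 higher (median -0.43). Their part in the Stat4 result was not tested.

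Both chains of the interferon gamma receptor were lower. Ifngr1 (15979, chromosome 10, 19591949 to 19610229), the ligand-binding chain, had 368 and 322 CPM in WT and 207 and 230 CPM in cKO. Every cKO library lay below every WT library, with a log2 fold change of -0.66 (SE 0.09, edgeR adjusted p = 0.00549). Ifngr2, the chain that completes the signalling complex, had 93.5 and 80.0 CPM in WT and 44.3 and 51.9 CPM in cKO. Its groups also lie apart, by -0.85 in log2 fold change (SE 0.11, edgeR adjusted p = 0.00541). In the same libraries 8 of 12 pan T cell markers were lower (median -0.32). Of 10 Treg markers 6 were lower and 1 higher (median -0.43). The part of these markers' cells in the falls of Ifngr1 and Ifngr2 was not tested. The ratio of Ifngr1 to Ifngr2 per kilobase changed little beside those of the other receptors, from 5.27 ± 0.08 to 6.01 ± 0.23.

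Of Tbx21, Eomes and Runx3, Eomes was the one that passed. Eomes (13813, chromosome 9, 118478186 to 118486132), a T-box factor of NK cells and memory CD8 T cells, had 18.2 and 20.7 CPM in WT and 30.3 and 35.4 CPM in cKO. The groups are clearly apart, with a log2 fold change of 0.76 (SE 0.11, edgeR adjusted p = 0.00636), and the call held in all 13 alternatives (0.64 to 0.86). Tbx21 (57765, chromosome 11, 97098007 to 97115331) had 22.3 and 21.1 CPM in WT and 20.6 and 22.6 CPM in cKO. Its groups overlap, and the 95% interval of the log2 fold change was -0.20 to 0.20 (edgeR adjusted p = 0.983), so changes beyond 0.20 in either direction lie outside it. Eomes relative to Tbx21 per kilobase accordingly went from 0.489 and 0.588 to 0.879 and 0.936. Because Foxp3 was lower in cKO (278 and 250 against 170 and 180 CPM), Tbx21 relative to Foxp3 went from 0.148 and 0.155 to 0.223 and 0.231 per kilobase. With Tbx21 itself not passing, this ratio restates the Foxp3 difference. It does not measure Tbx21 per Treg cell.

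Runx3 (12399, chromosome 4, 135120645 to 135177990), the partner of T-bet at Ifng and a factor of CD8 T cells, had 76.5 and 83.1 CPM in WT and 77.9 and 74.2 CPM in cKO. The groups overlap (log2 fold change -0.07, 95% interval -0.22 to 0.08, edgeR adjusted p = 0.476). Ifng (15978, chromosome 10, 118441046 to 118445894), the signature Th1 cytokine, had 34.8 and 35.6 CPM in WT and 36.8 and 37.9 CPM in cKO. Both cKO libraries were above both WT libraries, by a margin that did not pass (log2 fold change 0.09, 95% interval -0.05 to 0.22, edgeR adjusted p = 0.314).

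**Figure D4:**
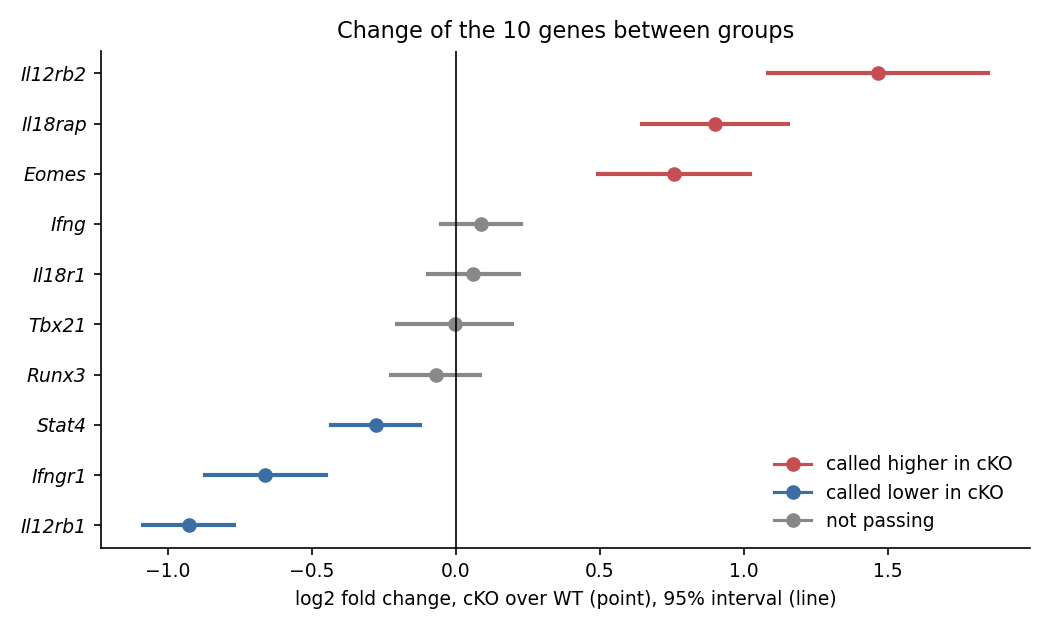
Log2 fold change of cKO over WT (horizontal axis) of the 10 genes with the 95% interval of the edgeR fit, coloured by call. The intervals of Il12rb2, Il18rap and Eomes lie above 0, those of Il12rb1, Ifngr1 and Stat4 below 0, and the other 4 include 0.

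Per kilobase of exon, the levels of the 10 genes spanned a wide range in WT. Ifngr1 was highest at 121 ± 11.4 CPM per kb, followed by Stat4 (30.7 ± 1.86), Ifng (27.2 ± 0.42), Il18r1 (18.4 ± 0.66), Runx3 (15.95 ± 0.94) and Il12rb1 (11.5 ± 0.07). Below these came Tbx21 (8.72 ± 0.34), Eomes (4.68 ± 0.42), Il18rap (4.40 ± 0.40) and Il12rb2 (1.51 ± 0.19), of which the neighbours Eomes and Il18rap overlapped. In cKO the order was Ifngr1 (76.7 ± 5.67), Ifng (28.8 ± 0.59), Stat4 (25.3 ± 0.80), Il18r1 (19.1 ± 1.205), Runx3 (15.2 ± 0.52), Tbx21 (8.69 ± 0.57), Il18rap (8.21 ± 0.94), Eomes (7.90 ± 0.87), Il12rb1 (6.06 ± 0.34) and Il12rb2 (4.16 ± 0.64). Il12rb1 thus moved from the sixth to the ninth place, and Tbx21, Il18rap and Eomes overlapped. Lengths are the merged exons of GENCODE release M21 and may differ from those of the authors' annotation. That of Il12rb2 includes the bases shared with Serbp1, so its level may be understated or overstated and its last place in cKO is not settled.

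Further genes of the pathway were read from lists, 75 of 77 of which were tested. Together 29 were called higher, 23 lower and 23 neither. In the IL-12 and IL-18 pathway list, which holds ligands, a decoy and related receptors as well as signalling genes, 5 of 18 tested genes fell and 13 did not pass (median -0.14). None rose by edgeR, DESeq2 or limma-voom, nor at an unadjusted p under 0.05, while 1 rose without cKO 1 and 1 with no filter on low counts. Irak2, a kinase of IL-1 and IL-18 signalling, had 49.5 and 49.4 CPM in WT and 25.5 and 26.6 CPM in cKO (log2 fold change -0.92, SE 0.06). Gadd45b, a stress gene induced by IL-12 with IL-18, fell by 1.31 on the log2 scale (SE 0.18), and Sigirr, a decoy-like inhibitor of this receptor family, by 0.62 (SE 0.08). Jak2 (-0.20, SE 0.05), which serves the IL-12 receptor, and the adaptor gene Traf6 (-0.23, SE 0.06) lose their calls when libraries are left out. Without 1 library Jak2 had adjusted p between 0.0658 and 0.148, and Traf6 between 0.0921 and 0.150 without WT 1, cKO 1 or cKO 2. The count of falls was 3 without WT 1, cKO 1 or cKO 2.

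The interferon gamma signalling list had 11 genes higher, 7 lower and 4 not passing out of 22 (median 0.20). Ifngr2 fell as above. Ciita, the regulator of MHC class II genes, rose by 0.81 on the log2 scale (SE 0.08) and the guanylate-binding protein gene Gbp3 by 0.41 (SE 0.05). In the same libraries 2 of 8 B cell markers and 3 of 5 dendritic cell markers were higher. Their part in the rise of Ciita was not tested. Cxcl10, a chemokine gene that binds CXCR3, fell by 0.94 (SE 0.12). The counts shrink with fewer libraries: 7 rose and 3 fell without WT 1, 8 and 5 without WT 2, 7 and 2 without cKO 1, and 10 and 6 without cKO 2.

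Among 9 tested partners of the Th1 factors 4 rose, 2 fell and 3 did not pass (median 0.11). Hlx, a homeobox gene that cooperates with T-bet, rose by 1.61 (SE 0.23), the repressor genes Prdm1 (Blimp-1) by 0.85 (SE 0.09) and Zeb2, a factor known to act with T-bet in effector cells, by 0.72 (SE 0.06), and Id2 by 0.46 (SE 0.07). Bhlhe40, known to promote interferon gamma over IL-10, went down by 1.40 on that scale (SE 0.18), with 666 and 571 CPM in WT against 192 and 278 in cKO, and Runx1 fell by 0.35 (SE 0.06). Of 7 genes that oppose the Th1 programme, 5 fell and 2 did not pass (median -0.52). None rose by edgeR, DESeq2 or limma-voom or at an unadjusted p under 0.05. Of 12 pan T cell markers 8 were lower too (median -0.32), and their part in these falls was not tested. Socs3, a feedback inhibitor of cytokine receptors, fell by 1.36 (SE 0.18), Tcf7 (TCF-1) by 0.57 (SE 0.07), Id3 by 0.61 (SE 0.11), Bcl6 by 0.52 (SE 0.08) and the Th2 regulator Gata3 by 0.25 (SE 0.06). For Gata3 the edgeR adjusted p was 0.0920 with WT 2 left out, 0.108 with cKO 1 left out and 0.0648 with cKO 2 left out, the highest over its alternatives being 0.108.

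Of 19 Th1 effectors and T-bet targets, 14 rose, 4 fell and 1, Il2rb, did not pass (median 0.60). DESeq2, RLE scaling and the replicate block each gave 13 rises, and some of the rises lose their calls when a library is left out. Gzma, the granzyme A gene, had 17.6 and 26.3 CPM in WT and 66.02 and 65.7 CPM in cKO and rose by 1.59 on the log2 scale (SE 0.17), Havcr2, the checkpoint receptor TIM-3, by 1.11 (SE 0.13) and the chemokine gene Ccl3 by 0.77 (SE 0.09). Cxcr3, the chemokine receptor that marks T-bet-expressing Treg cells, had 77.2 and 78.8 CPM in WT and 59.7 and 52.4 CPM in cKO, a fall of 0.48 (SE 0.07) in log2 fold change. Fasl fell by 0.59 (SE 0.09), the lymphotoxin gene Lta by 0.37 (SE 0.07) and Tnf by 0.34 (SE 0.07). Lta loses its call without WT 1, WT 2 or cKO 1 (edgeR adjusted p 0.0680, 0.0559 and 0.0717) and Tnf without WT 1 or cKO 1 (0.0741 and 0.0770), which leaves 2 falls without WT 1 and 2 without cKO 1. All of these lists were chosen with earlier results of these data known, and their counts are descriptions beside the 31.6% called over all genes.

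**Figure D5:**
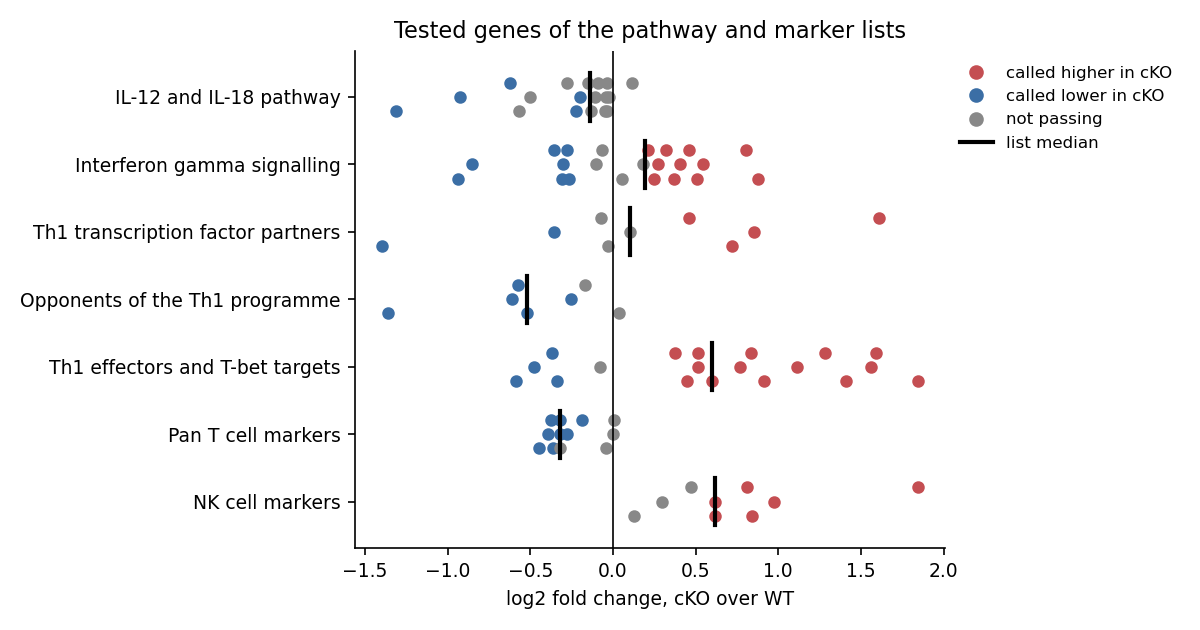
Log2 fold change of cKO over WT (horizontal axis) of every tested gene of 5 pathway lists and 2 marker lists, 1 point a gene, coloured by call, with the list median as a black line. The medians are 0.60 for Th1 effectors, -0.52 for opponents, -0.32 for pan T cell markers and 0.62 for NK cell markers.

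Several of the genes that rose are also expressed by other cells of the spleen, whose markers were higher in the same libraries. Of 9 NK cell markers, 6 rose (median 0.62), and their sum was 49.3 to 56.7 CPM in WT and 78.4 to 80.9 CPM in cKO, with none at 0. The single NK markers ran from 0.13 (Klrb1c, which did not pass) to 1.84 (Klra9) on the log2 scale. Ncr1, which defines NK cells, had 5.04 and 5.81 CPM in WT and 8.11 and 8.54 CPM in cKO. Its call is lost without WT 1, cKO 1 or cKO 2 (edgeR adjusted p 0.0867, 0.0604 and 0.0792) and with DESeq2 (0.0710), and without WT 1 those of Klra4 (0.0619) and Klra8 (0.0511) end too. The 2 CD8 markers both rose and summed to 41.1 to 48.3 CPM in WT and 56.3 to 64.7 CPM in cKO, although neither passes without WT 1 (edgeR adjusted p 0.179 for Cd8a, 0.0936 for Cd8b1) or without cKO 2 (0.179 and 0.0815), nor Cd8a without WT 2 (0.0502). Basophil markers, all 8 higher (median 3.49), summed to 3.40 to 7.38 and 27.4 to 47.8 CPM. Of these Cyp11a1 loses its call without any of the 4 libraries in turn (edgeR adjusted p 0.0628 to 0.196) and with DESeq2 (0.244), and Cpa3 (0.0869), Ms4a2 (0.0554) and Hdc (0.0627) lose theirs without WT 1. All 12 neutrophil markers were higher, summing to 67.0 to 192 CPM in WT and 623 to 1356 CPM in cKO, with the calls of Camp (edgeR adjusted p 0.0604), Ngp (0.0538) and S100a8 (0.0571) lost without WT 1. Of 9 γδ T cell markers 4 are in the table, with sums of 12.9 to 16.01 and 35.8 to 38.7 CPM. B cell markers summed to 110 to 134 and 148 to 262 CPM (2 of 8 higher, of which Cd79a, at an edgeR adjusted p of 0.0499, loses its call in 7 of 13 alternatives, up to 0.197 without WT 1). Dendritic cell markers summed to 30.4 to 34.6 and 57.0 to 63.1 CPM (3 of 5 higher). No marker found in the table is at 0 in all libraries. The part of these cells in the rises of Eomes, Il18rap, Il12rb2, Ciita, the Th1 partners and the effector genes was not tested. Nor was the part of any cell type in the values of Tbx21, Ifng, Runx3 and Il18r1, which did not pass. The bulk values of these genes do not show that their level within Treg cells was the same.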

How the data were processed

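The deposited table gives whole-number read counts per gene for the 4 libraries, unnormalized as far as the deposited values show, with gene symbols and numbers. Reads were handled on build mm10, per the submitters' processing notes. Aligner, counter, annotation release and strand setting: not given in the sources used here. Positions came from RefSeq (GRCm38.p6) by gene number and exon lengths from GENCODE M21 by symbol.

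Groups follow the sample titles. Genes were filtered with edgeR's filterByExpr (minimum count 10, total 15), scaled by TMM and compared by the quasi-likelihood F-test of edgeR 4.0.16 in R 4.3.3, group alone, 2-sided, Benjamini-Hochberg adjusted over 13861 genes, threshold 0.05. SE is the absolute log2 fold change over the square root of F, and 95% intervals use the fit's total degrees of freedom. The fit was tested on simulated data. Alternatives were DESeq2 1.42.0, limma-voom (limma 3.58.1), scaling by RLE or by the upper quartile, 2 other filters, thinning, a replicate block and leaving out each library. A block of crossed pairs was added after seeing the data and is counted among the 13.

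The members and lists were chosen with earlier results of these data known. Genes named are the 10 members, up to 4 called genes per pathway list with the smallest p, called genes within 200 kb of a member, and classes of 5 or fewer. Serbp1, Il23r, Il1rl2, Il1r1, Ifngas1 Ncr1 and the other cell type markers were singled out after their values were seen. Some genes that this rule names are not reported here.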

Additional observations from a re-analysis of the deposited data

How the results depend on the processing

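Of the 10 genes, 5 (Eomes, Il12rb1, Il12rb2, Il18rap and Ifngr1) kept direction and call in all 13 alternatives, and Stat4 kept its direction with its call lost in 4. Counts of members called were 3 higher throughout and 2 or 3 lower. Tbx21, near 0, changed sign with upper-quartile scaling (0.024) and thinning (0.032) and ran from -0.076 to 0.057 with 1 library left out, and Il18r1 ran from -0.0097 to 0.12; none of these passed. Over all genes DESeq2 called 2876 (1301 higher). Leaving out 1 library gave 1869 to 2747 genes, 886 to 1375 higher and 983 to 1372 lower, and for pathway genes 22 to 27 higher and 14 to 19 lower. Same-numbered libraries deviated oppositely (correlation across genes -0.32), so the numbers were not taken to pair them. The replicate block called 2292 genes (1151 higher, 1141 lower), 15 pathway genes lower, and left Stat4 at an edgeR adjusted p of 0.0713. Crossed pairs as a block, an alternative chosen after seeing the data, called 6713 (3520 higher, 3193 lower). Depth limits Il12rb2 most, with 181 to 510 reads a library, and each group has 2 libraries.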

Other observations

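Within 200 kb of the 10 genes lie 53 distinct tested genes, of which 11 were higher and 12 lower in cKO. These counts include the members Il18r1 (not passing) and Il18rap (higher), which lie near each other. Of all genes tested, 16.5% were called higher and 15.1% lower. Several of the calls near the 10 genes are lost in some of the alternatives. Near Tbx21, itself at -0.003, 4 of 13 tested neighbours were higher and 3 lower. Cdk5rap3 lost its higher call in 8 of 13 alternatives, Kpnb1 in 4 of 13 and D030028A08Rik in 6 of 12. Gm11532 lost its lower call in 5 of 12, while Tbkbp1, Sp6 and Sp2 kept theirs throughout. Sp6, a zinc finger factor gene 73268 bases away, had 24.6 and 22.7 CPM in WT and 0.756 and 1.48 CPM in cKO (log2 fold change -4.37, SE 0.23), while Tbkbp1, the nearest of these 13 genes at 20840 bases, rose by 0.91 (SE 0.14). Near Il12rb1, Jund, an AP-1 gene, fell by 0.75 (SE 0.10) and Pde4c, a cAMP phosphodiesterase gene, rose by 1.66 (SE 0.20). Beside Runx3, which did not pass, Ncmap, a myelin protein gene 191586 bases away, had 14.0 and 12.4 CPM in WT and 1.03 and 2.37 CPM in cKO (log2 fold change -2.93, SE 0.32, ranging from -3.68 to -2.48 over the alternatives). The long non-coding RNA Ifngas1, transcribed next to Ifng, had 0.72 and 0.886 CPM in WT and 1.44 and 1.30 CPM in cKO, a difference short of the threshold (log2 fold change 0.77, SE 0.25, edgeR adjusted p = 0.0645).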
